A study of Mus musculus with 6 samples.

Results

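Hypoxic embryoid bodies (EBs) were compared with undifferentiated mouse embryonic stem cells (mESCs) for the levels of their microRNAs (miRNAs), so that the change of cell state, of culture form and of oxygen was read in a single step. Of 1247 mouse miRNAs on the array, 474 were detected by the scanner's flag on both arrays of at least 1 of these groups, and these were the miRNAs described. On all 4 arrays 394 of them were detected. Another 56 were detected on both hypoxic EB arrays and neither mESC array, 18 on both hypoxic EB arrays and 1 mESC array, 1 on both mESC arrays and neither hypoxic EB array, and 5 on both mESC arrays and 1 hypoxic EB array.

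The 2 hypoxic EB arrays held RNA of aggregates that a C57 mESC line formed in hanging drops, without feeder cells and without leukaemia inhibitory factor (LIF), the cytokine that keeps mouse ES cells undifferentiated, and that had spent 16 h under hypoxia. The oxygen level is not given in the labels. The 2 normoxic EB arrays, which are set beside them where they help to place a value, held EBs made the same way and kept for 16 h under normoxia. The 2 mESC arrays held C57 mESCs grown in LIF-containing medium on mouse embryonic fibroblast feeders that mitomycin C had stopped from dividing, after 16 h of normoxia. The labels name no genetic change in any group. Loss of feeders, loss of LIF, aggregation and hypoxia came together in the hypoxic EBs, and so cannot be told apart in their comparison with mESCs. Separate cultures for the arrays of a group are not mentioned in the labels. A p-value here thus covers no more than the spread between arrays, possibly a technical one, and precision is limited by their small number. All 6 arrays lay on 1 slide, the EBs in its first row and the mESCs in its second, so that slide row is confounded with cell state and the 2 cannot be told apart. The hypoxic EBs lay in columns 1 and 2, and the normoxic EBs and mESCs in columns 3 and 4. Slide column is thus confounded with hypoxia, also between the EB groups, and these cannot be told apart either.

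A miRNA is a short RNA that guides an Argonaute protein to messenger RNAs, mostly through its seed, bases 2 to 8 from the 5′ end, so miRNAs that share a seed can bind many of the same sites. Mouse ES cells are known for a few clusters of this kind. The miR-290 to miR-295 cluster is the main one in undifferentiated mouse ES cells, the miR-302 and miR-367 cluster is active in pluripotent cells and in the early epiblast, and the miR-17/92 clusters are found in many dividing cells. In most cell types miR-210 is the miRNA best known to be raised by hypoxia, through hypoxia-inducible factors.

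The mature sequences that carry the comparison are given from RefSeq (mouse build GRCm38.p6), with the seed in capitals; 357 of the 474 miRNAs had an entry there, 8 of them under a name with an added letter a. The first set shows that bright miRNAs of the miR-290 to miR-295 group and of the miR-302 and miR-367 cluster share a seed, although the clusters changed to very different degrees, and that miR-302c-3p carries nearly the same bases 1 position along.
miR-302d-3p: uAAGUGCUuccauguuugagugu
miR-302b-3p: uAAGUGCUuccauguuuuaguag
miR-302c-3p: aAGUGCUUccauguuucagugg
miR-294-3p: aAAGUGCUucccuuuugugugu
miR-295-3p: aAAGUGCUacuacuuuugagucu
miR-291a-3p: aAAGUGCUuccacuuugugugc
The second set shows 2 further seeds of these clusters. One is shared by miR-367-3p and miR-92a-3p, and the other by members of the miR-17/92 clusters.
miR-367-3p: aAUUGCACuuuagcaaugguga
miR-92a-3p: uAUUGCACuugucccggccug
miR-20b-5p: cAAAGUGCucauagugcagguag
miR-20a-5p: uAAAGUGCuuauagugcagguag
miR-17-5p: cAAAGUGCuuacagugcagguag
The third set shows a pair with 1 seed that moved in opposite directions, together with the opposite arm of one hairpin.
miR-125b-5p: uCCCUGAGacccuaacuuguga
miR-125a-5p: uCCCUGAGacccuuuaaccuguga
miR-125a-3p: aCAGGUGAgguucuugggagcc
The last set holds some of the other miRNAs with the largest changes, the hypoxia-responsive miR-210-3p, and some of the brightest miRNAs. miR-598-5p and miR-150-5p, also among the largest rises, had no entry.
miR-21a-5p: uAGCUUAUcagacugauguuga
miR-708-5p: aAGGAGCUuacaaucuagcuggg
miR-681: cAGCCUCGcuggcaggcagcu
miR-677-5p: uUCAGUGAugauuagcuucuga
miR-210-3p: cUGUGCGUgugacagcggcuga
miR-494-3p: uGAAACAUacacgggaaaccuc
miR-3963: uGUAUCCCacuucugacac
miR-6366: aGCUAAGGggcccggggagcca
miR-3968: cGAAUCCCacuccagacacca
miR-5126: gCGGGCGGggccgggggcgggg

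Levels below are total signals per miRNA, multiplied on each array by a single factor that made the 75th percentile of a common set (the miRNAs seen on every array) the same, and are called units. Differences are on the log2 scale, hypoxic EB minus mESC, from a limma fit across all 484 miRNAs tested, with Benjamini-Hochberg adjustment over all of them and a threshold of 0.05. The scanner marked 495 and 471 miRNAs as detected in hypoxic EBs, 446 and 473 in normoxic EBs and 408 and 415 in mESCs. Replicate arrays were close, with a correlation of log2 signal over miRNAs of 0.997 in each group and an SD of the log2 difference between replicates of 0.226 in hypoxic EBs and 0.217 in mESCs.

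The 2 states differed over much of the array, mostly by less than 2-fold. Among all 484 miRNAs tested, 200 were higher in hypoxic EBs, which is 41.3%, and 163 were lower, which is 33.7%. With a change of at least 2-fold added to the rule, 59 were higher (12.2%) and 18 were lower (3.72%). The 200 include 45 of the 56 miRNAs detected on both hypoxic EB arrays and neither mESC array. Their mESC values were set to a fixed low value, the floor of the fit, and had no spread. These calls thus compare with a bound. At that floor 34 of the 56 were at least 2-fold higher, so many of the 59 were of this kind. The 1 miRNA detected in mESCs only was likewise among the 163 and the 18. Among the 394 miRNAs detected on all 4 arrays, 149 were higher (37.8%) and 159 were lower (40.4%), and of these 20 (5.08%) and 15 (3.81%) passed the 2-fold rule. The shares of 37.8% and 40.4% are the background for the counts of every list below. The levels of 364 of the 394, or 92.4%, did not overlap between the groups, so a lack of overlap was the common case here. An exact permutation test of 2 arrays against 2 cannot give a p below 0.333, and the calls therefore rest on the fit. It joins each miRNA's own spread within the 3 groups (residual df 3) with a spread pooled over miRNAs (prior df 1.43).

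How many miRNAs were called lower depended on how the arrays were put on 1 scale. The median log2 difference of all 484 miRNAs was 0.11 with the percentile scaling, 0.57 with no scaling and 0.44 with scaling by the hur control features of the array. With no scaling 251 miRNAs were called higher and 19 lower, and with the hur features 251 and 60. Higher calls made up 55.1% of all calls with the percentile scaling, 93.0% with none, 80.7% with the hur features, 47.5% after quantile normalization and 45.7% after cyclic loess. A change is therefore best read relative to the other miRNAs on the array, and the differences that follow are given in that sense.

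**Figure D1:**
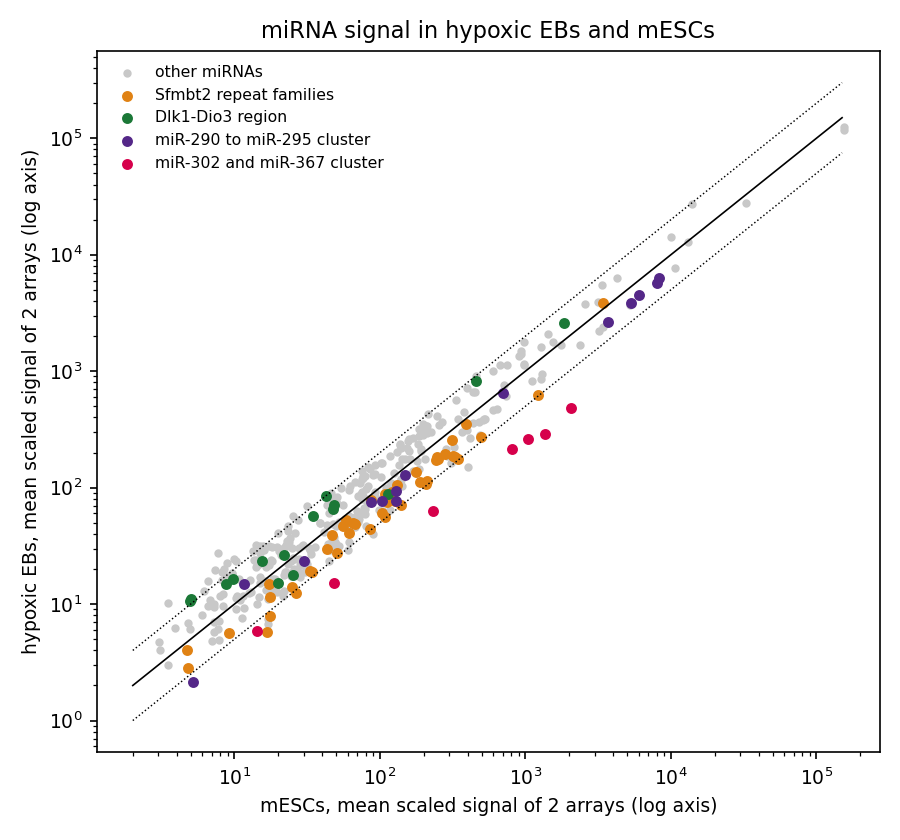
Level of each miRNA in hypoxic EBs (vertical axis) against mESCs (horizontal axis), as the mean of 2 arrays in scaled units on log10 axes, for the 394 miRNAs detected on all 4 arrays, with equal levels on the solid diagonal, 2-fold differences on the dotted lines, and 4 clusters in colour. Of the 7 members of the miR-302 and miR-367 cluster 6 have the largest falls of the 394, and most other miRNAs lie within the 2-fold lines.

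The largest fall was that of the miR-302 and miR-367 cluster, a single transcript whose miRNAs repress inhibitors of the cell cycle. Of its 10 mature miRNAs on the array 7 were detected on all 4 arrays, and all 7 were lower in hypoxic EBs, with a median log2 difference of -1.93 beside -0.09 over all 394. The brightest, miR-367-3p, read 482 and 487 units in hypoxic EBs, against 2121 and 1985 units in mESCs. Both hypoxic EB arrays were below both mESC arrays, and the fit gave a log2 difference of -2.08 (95% interval -2.27 to -1.89, adjusted p = 0.000196), or 4.24-fold lower. For miR-302d-3p the levels were 290.3 and 285 units in hypoxic EBs, against 1372 and 1340.1 units in mESCs, with no overlap between the groups. This was the largest fall of any miRNA detected on all 4 arrays, with a log2 difference of -2.24 (95% interval -2.41 to -2.07, adjusted p = 0.000196), or 4.72-fold.

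The other -3p members followed closely. Levels of miR-302a-3p were 259 and 261 units in hypoxic EBs, against 1062 and 1029.7 units in mESCs, a log2 difference of -2.01 (95% interval -2.19 to -1.82, adjusted p = 0.000196). miR-302b-3p stood at 218 and 208 units in hypoxic EBs, against 821 and 801 units in mESCs, a log2 difference of -1.93 (95% interval -2.13 to -1.73, adjusted p = 0.000244). miR-302c-3p, the member whose seed is displaced by 1 base, had 63.4 and 63.5 units in hypoxic EBs, against 233 and 231 units in mESCs, a log2 difference of -1.87 (95% interval -2.03 to -1.71, adjusted p = 0.000196). In all 3 the groups were far apart and the replicates close to each other. The dimmer -5p arms were also lower. miR-302a-5p had 16.6 and 13.7 units in hypoxic EBs, against 47.6 and 48.3 units in mESCs, a log2 difference of -1.67 (95% interval -1.95 to -1.39, adjusted p = 0.000566). miR-302d-5p had 7.09 and 4.55 units in hypoxic EBs, against 14.1 and 14.6 units in mESCs, a log2 difference of -1.34 (95% interval -1.93 to -0.75, adjusted p = 0.00557), and its 2 hypoxic EB arrays differed more than those of any other member. With the hur features all 7 were called lower, at a median of -1.59. With no scaling the median was -1.43, and 6 of 7 were called, while miR-302d-5p had a log2 difference of -0.84 that missed the threshold (adjusted p = 0.0785).

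Most of that fall was already present in normoxic EBs. The median over the 7 was -1.59 for normoxic EBs minus mESCs and -0.40 for hypoxic minus normoxic EBs, where these comparisons share the normoxic EB arrays and add up to the whole difference by construction. For miR-302d-3p the normoxic EBs read 400.5 and 364 units, between the other groups and nearer to the hypoxic EBs. The cluster as a whole held 0.323% and 0.271% of the signal in hypoxic EBs, 0.381% and 0.356% in normoxic EBs and 1.10% and 1.07% in mESCs. In bulk RNA, fewer cells with a miRNA and less of it per cell cannot be told apart.

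The miR-290 to miR-295 cluster, whose main members share the seed of miR-302d-3p and miR-302b-3p, had a smaller median difference of -0.42. All 14 of its miRNAs on the array were detected on all 4 arrays, and 12 of 14 were lower in hypoxic EBs and none higher, a direction that turned with no scaling, where the median was 0.07 with 2 higher and none lower. miR-294-3p, which can restore the fast cell cycle of ES cells that lack miRNAs, read 5851 and 5647 units in hypoxic EBs, against 8182 and 7788 units in mESCs, a log2 difference of -0.47 (95% interval -0.68 to -0.27, adjusted p = 0.00535). For miR-295-3p the levels were 6214 and 6301 units in hypoxic EBs, against 8581 and 8094 units in mESCs, a log2 difference of -0.41 (95% interval -0.61 to -0.22, adjusted p = 0.00696). The groups did not overlap for either of them, and the falls were small beside those of the miR-302 members. miR-291a-3p had 4384 and 4562 units in hypoxic EBs, against 6059.8 and 5907 units in mESCs, with a log2 difference of -0.42 (adjusted p = 0.00425).

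With the hur features its median was -0.08, with 1 member higher and 1 lower. The log2 differences of miR-294-3p, miR-295-3p and miR-291a-3p were 0.02, 0.08 and 0.08 with no scaling, none of them past the threshold. As a share of the signal, which a single factor per array cannot alter, the cluster made up 5.82% and 4.97% in hypoxic EBs, 6.41% and 6.004% in normoxic EBs and 6.48% and 6.27% in mESCs. Both hypoxic EB arrays lay below both mESC arrays, with a gap between the hypoxic EB arrays that was wider than the gap between the groups. The cluster was still among the brightest in hypoxic EBs, with miR-294-3p at rank 9 and 11 in hypoxic EBs, against ranks 9 and 9 in mESCs, and miR-295-3p at rank 8 and 9 in hypoxic EBs, against ranks 8 and 8 in mESCs.

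The miR-17/92 clusters, which hold miR-17-5p, miR-20a-5p, miR-20b-5p and miR-92a-3p and are known to promote growth and survival, had a median difference of the same size. Of 24 members described 19 were detected on all 4 arrays. Among the 19, 14 were lower and none higher, beside 40.4% and 37.8% over all 394. Their median was -0.42, and it was 0.07 with no scaling. miR-20b-5p read 2232 and 2190.2 units in hypoxic EBs, against 3266 and 3147 units in mESCs, a log2 difference of -0.54 (95% interval -0.74 to -0.34, adjusted p = 0.00345). miR-19b-3p, the brightest, had 3677 and 3730.3 units in hypoxic EBs, against 5386 and 5143 units in mESCs, a log2 difference of -0.51 (95% interval -0.68 to -0.33, adjusted p = 0.00282). Both were lower on each hypoxic EB array than on each mESC array. The counts became 5 higher and 0 lower with no scaling, and 5 higher and 1 lower, with a median of -0.08, with the hur features.

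A difference taken within an array does not depend on the scaling factor. The mean log2 signal of the miR-302 and miR-367 members minus that of the miR-17/92 members was -0.94 and -1.11 in hypoxic EBs, -0.98 and -0.996 in normoxic EBs and 0.53 and 0.52 in mESCs. The 2 EB groups overlapped, and both lay below mESCs, by 1.55 log2 units for hypoxic EBs. Seed families were read only among miRNAs with a RefSeq entry, which miR-302a-3p lacked, so their shares may miss members. In the family with the seed of miR-302d-3p and miR-294-3p, all 5 members read in this way were lower. Together they held 4.10% and 3.48% of the signal in hypoxic EBs, against 4.86% and 4.69% in mESCs. The 6 miRNAs with the seed of miR-367-3p and miR-92a-3p held 0.655% and 0.583% in hypoxic EBs, against 1.04% and 1.01% in mESCs, and the 5 with the seed of miR-17-5p held 1.41% and 1.16%, against 1.60% and 1.56%.

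**Figure D2:**
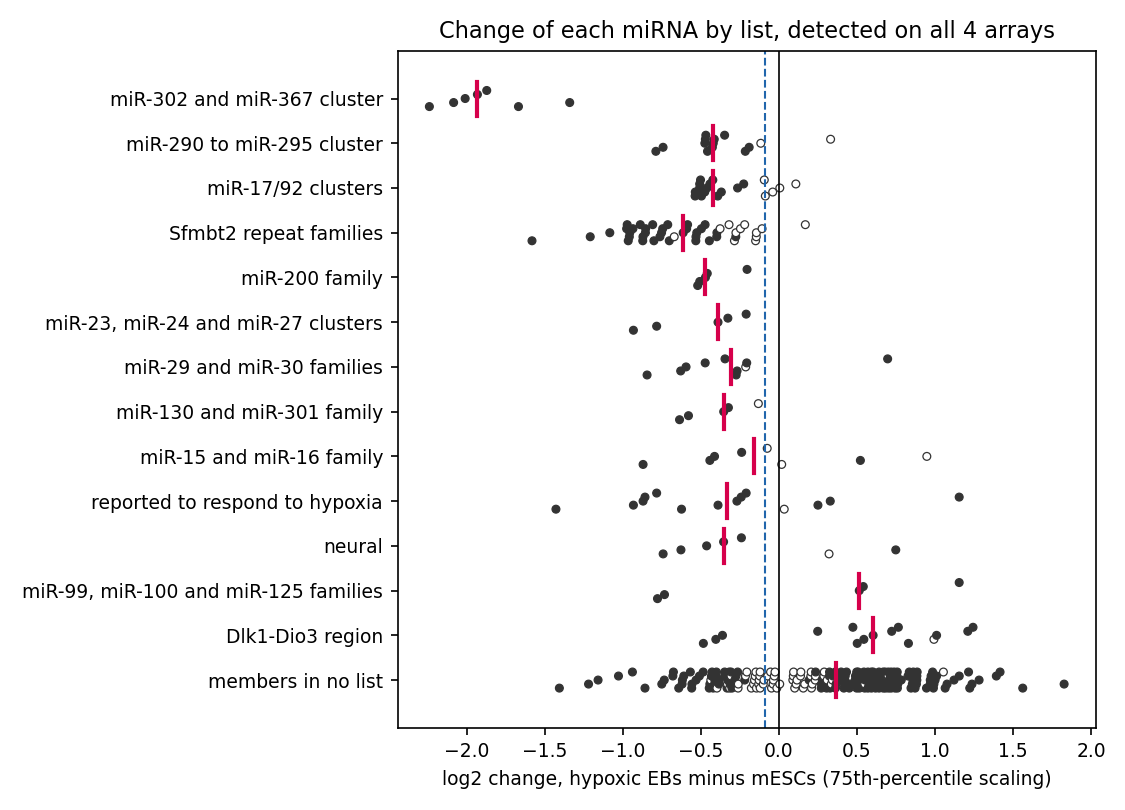
Log2 difference, hypoxic EB minus mESC, of each miRNA detected on all 4 arrays (points, filled where the adjusted p was under 0.05) by cluster, family or cell type list, with the median of each list as a red bar, 0 as a solid line and the median of all 394 as a dashed line. The miR-302 and miR-367 cluster has a median of -1.93, the Sfmbt2 repeat families -0.61, and the Dlk1-Dio3 region 0.60.

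The miR-297, miR-466, miR-467 and miR-669 families, with many near-identical copies in a large cluster within an intron of Sfmbt2, were also lower. The list of these families took every miRNA with such a number by name. Positions were not checked, so a member of the list need not lie in that intron. Of its 48 members described 45 were detected on all 4 arrays. Among the 45, 33 were lower and none higher, beside 40.4% and 37.8% over all 394, with a median of -0.61. miR-669f-3p had 627 and 626 units in hypoxic EBs, against 1241 and 1191 units in mESCs, a log2 difference of -0.96 (95% interval -1.12 to -0.80, adjusted p = 0.000566). miR-467b-5p read 176 and 175 units in hypoxic EBs, against 345 and 344 units in mESCs, a log2 difference of -0.97 (95% interval -1.09 to -0.86, adjusted p = 0.000265). The replicates of both groups were nearly equal and the groups clearly apart. The largest fall of the family, in miR-669m-3p, was at low signal, with 6.91 and 4.53 units in hypoxic EBs, against 17.4 and 16.1 units in mESCs, a log2 difference of -1.58 (95% interval -2.17 to -0.995, adjusted p = 0.00337).

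Not all of the family was called lower. Its brightest member, miR-466i-5p, stood at 3849 and 3834 units in hypoxic EBs, against 3515 and 3316 units in mESCs, and its log2 difference of 0.17 missed the threshold (adjusted p = 0.207). It passed as higher in a fit of the 4 arrays alone (adjusted p = 0.0405), with no scaling (0.67, adjusted p = 0.0272) and with the hur features (0.51, adjusted p = 0.0184). With no scaling 6 of the 45 were lower and 1 higher, and with the hur features 22 were lower and 1 higher, with medians of -0.12 and -0.27. Relative to mESCs the normoxic EBs were lower still, at a median of -0.71, and hypoxic minus normoxic EBs gave 0.14. Because the copies are alike in sequence, a probe may read several of them, and the members are not independent.

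The imprinted Dlk1-Dio3 region, a maternally expressed group of miRNA genes whose silencing marks poorly developing pluripotent lines, went the other way. Of 111 of its miRNAs on the array 22 were described and 15 were detected on all 4 arrays. Among the 15, 11 were higher and 3 lower, beside 37.8% and 40.4% over all 394, with a median of 0.60. The brightest was miR-494-3p, with 2505 and 2690.4 units in hypoxic EBs, 1982 and 1966 units in normoxic EBs and 1826 and 1839 units in mESCs. The hypoxic EBs were above both other groups without overlap, a log2 difference of 0.50 (95% interval 0.36 to 0.65, adjusted p = 0.00178) against mESCs. miR-3072-5p read 768 and 865 units in hypoxic EBs, against 453 and 463 units in mESCs, a log2 difference of 0.83 (95% interval 0.64 to 1.02, adjusted p = 0.00107). miR-770-3p had 85.2 and 85.8 units in hypoxic EBs, against 42.0 and 42.9 units in mESCs, a log2 difference of 1.01 (95% interval 0.89 to 1.13, adjusted p = 0.000265), or 2.02-fold.

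The 3 that were lower included miR-127-3p, at 14.6 and 15.6 units in hypoxic EBs, against 20.3 and 19.6 units in mESCs, a log2 difference of -0.40 (95% interval -0.59 to -0.22, adjusted p = 0.00651), whose difference turned to 0.09 with no scaling. The region had 11 higher and none lower with no scaling and with the hur features. It had 7 higher with the 75th percentile over all miRNAs, after quantile normalization, after cyclic loess, at 4 times the floor and without either hypoxic EB array, and 6 with no filter on detection, at medians between 0.47 and 0.65. The region made up 0.928% and 0.845% of the signal in hypoxic EBs, 0.636% and 0.658% in normoxic EBs and 0.520% and 0.536% in mESCs. Over members seen on every one of the 6 arrays, its mean log2 signal minus that of the Sfmbt2 families was -0.52 and -0.39 in hypoxic EBs, -0.61 and -0.60 in normoxic EBs and -1.72 and -1.50 in mESCs.

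Outside these clusters, the largest fall with detection on all 4 arrays was that of miR-21a-5p, a miRNA abundant in fibroblasts and in many differentiated and tumour cells. It read 154 and 147 units in hypoxic EBs, 201 and 179 units in normoxic EBs and 415 and 393 units in mESCs. Each EB array lay below each mESC array, a log2 difference of -1.43 (95% interval -1.63 to -1.22, adjusted p = 0.000408), or 2.69-fold lower. miR-27a-3p, of the miR-23, miR-24 and miR-27 clusters, had 158 and 165 units in hypoxic EBs, against 305 and 311 units in mESCs, a log2 difference of -0.93 (95% interval -1.08 to -0.78, adjusted p = 0.000566). miR-23a-3p, made from the same transcript, stood at 283 and 281 units in hypoxic EBs, against 491 and 479 units in mESCs, a log2 difference of -0.78 (95% interval -0.94 to -0.63, adjusted p = 0.00077). All 5 members of these clusters detected on all 4 arrays were lower, at a median of -0.39 that turned to 0.11 with no scaling, where 1 of 5 was lower and miR-23a-3p was not (adjusted p = 0.128).

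Among the rises, miR-598-5p was the largest of those detected on all 4 arrays. It had 26.6 and 28.0 units in hypoxic EBs, 18.3 and 17.6 units in normoxic EBs and 7.05 and 8.39 units in mESCs. The 3 groups did not overlap, and hypoxic EBs minus mESCs gave a log2 difference of 1.83 (95% interval 1.57 to 2.09, adjusted p = 0.000404), or 3.55-fold higher. miR-708-5p, which lies in an intron of Tenm4, read 10.8 and 9.70 units in hypoxic EBs, 6.87 and 6.48 units in normoxic EBs and 3.33 and 3.61 units in mESCs, a log2 difference of 1.56 (95% interval 1.34 to 1.78, adjusted p = 0.000395). For miR-681 the levels were 19.4 and 19.8 units in hypoxic EBs, 13.4 and 13.9 units in normoxic EBs and 7.24 and 7.45 units in mESCs, a log2 difference of 1.42 (95% interval 1.29 to 1.54, adjusted p = 0.000196). In each of these 3 the normoxic EBs lay between the other groups.

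A further pair of rises were as large without hypoxia. miR-150-5p, a miRNA of mature lymphocytes that represses Myb, read 22.4 and 22.3 units in hypoxic EBs, 25.4 and 23.5 units in normoxic EBs and 8.75 and 9.10 units in mESCs, a log2 difference of 1.32 (95% interval 1.17 to 1.48, adjusted p = 0.000265). miR-677-5p had 15.1 and 16.1 units in hypoxic EBs, 19.5 and 17.97 units in normoxic EBs and 6.55 and 6.70 units in mESCs, a log2 difference of 1.24 (95% interval 1.06 to 1.41, adjusted p = 0.000395). In both, the normoxic EBs were at or above the hypoxic EBs. The other 3 of the 8 largest rises rested on a single low mESC array or on mESC arrays that differed by about 2-fold. miR-6405 had 22.7 and 25.8 units in hypoxic EBs, against 6.21 and 13.7 units in mESCs (log2 difference 1.39, adjusted p = 0.029). miR-3093-3p had 21.4 and 25.3 units in hypoxic EBs, against 6.58 and 13.8 units in mESCs (1.28, adjusted p = 0.0312). miR-485-3p, of the Dlk1-Dio3 region, had 10.9 and 11.4 units in hypoxic EBs, against 6.69 and 3.29 units in mESCs (1.24, adjusted p = 0.0413). These 3 lost their calls in a fit of the 4 arrays alone, with adjusted p of 0.0772, 0.0827 and 0.0768. The differences of miR-6405 and miR-3093-3p were 0.82 and 0.75 without the first mESC array, and that of miR-485-3p was 0.73 without the second.

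**Figure D3:**
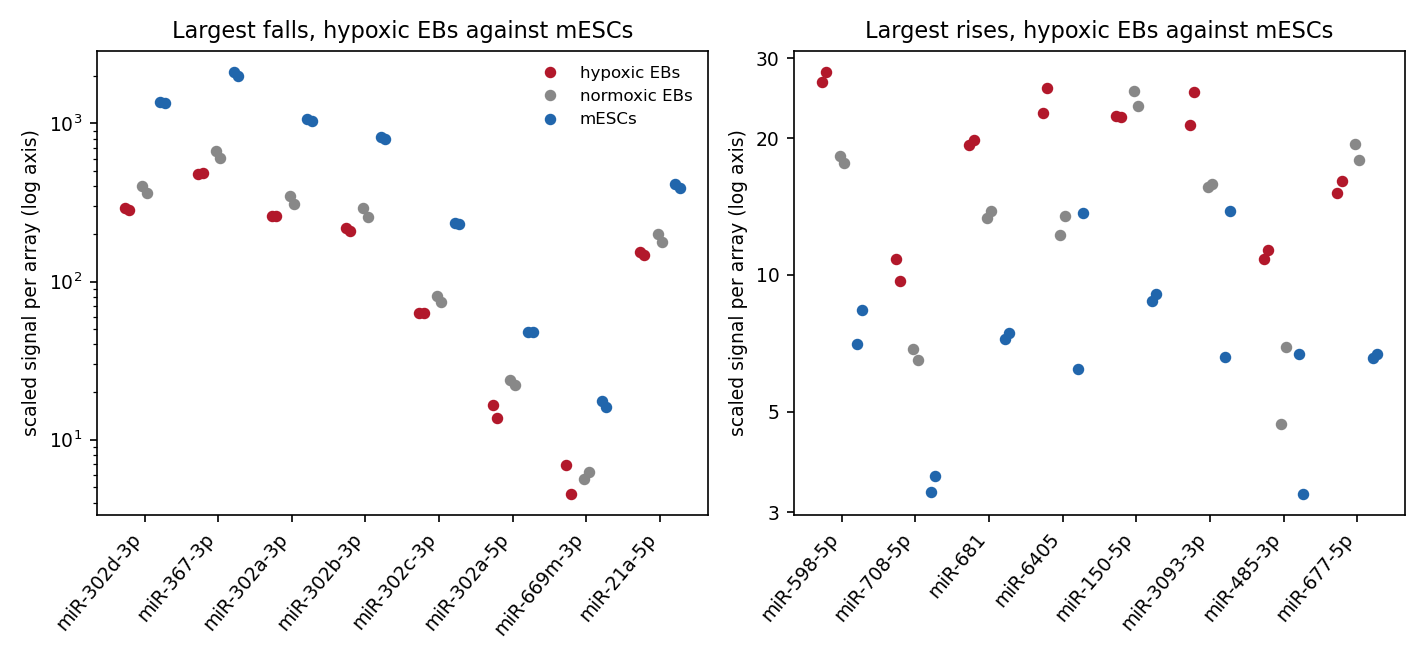
Levels of the 8 miRNAs with the largest falls and the 8 with the largest rises in scaled units (log10 axis), 1 point per array, for hypoxic EBs, normoxic EBs and mESCs. The normoxic EBs lie with the hypoxic EBs or between the groups for most of them, and miR-302d-3p is at 290.3 and 285 units in hypoxic EBs, against 1372 and 1340.1 units in mESCs.

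Hypoxia-responsive miRNAs did not move as 1 group. Of 39 on the array that the list holds, 17 were described and 14 were detected on all 4 arrays. Among these 14, 3 were higher and 10 lower, beside 37.8% and 40.4% over all 394. Their median was -0.33, and it was 0.17 with no scaling and 0.01 with the hur features. miR-210-3p, the member most closely tied to hypoxia-inducible factors and a repressor of the iron-sulphur cluster proteins Iscu1 and Iscu2, read 171 and 181 units in hypoxic EBs, 79.3 and 73.6 units in normoxic EBs and 154 and 142 units in mESCs. Hypoxic EBs were thus slightly above mESCs, a log2 difference of 0.25 (95% interval 0.06 to 0.44, adjusted p = 0.031), and normoxic EBs below both. Normoxic EBs minus mESCs was -0.95 and hypoxic minus normoxic EBs was 1.21. Both rest on the same low normoxic EB arrays, so their opposite signs and their sum, the small net difference, follow by construction. The call against mESCs was lost after quantile normalization, with the 75th percentile over all miRNAs (adjusted p = 0.0962) and in each fit without 1 hypoxic EB or mESC array, with adjusted p between 0.0528 and 0.136 in those 4 fits.

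miR-125b-5p, which rises when many cells differentiate, had 55.6 and 57.6 units in hypoxic EBs, 75.1 and 64.7 units in normoxic EBs and 26.3 and 24.5 units in mESCs. It was 2.23-fold higher in hypoxic EBs than in mESCs, with a log2 difference of 1.16 (95% interval 0.91 to 1.40, adjusted p = 0.000853), and the normoxic EBs were higher still. miR-155-5p, a regulator of immune cells, was at 25.7 and 26.9 units in hypoxic EBs, against 20.0 and 21.9 units in mESCs, a log2 difference of 0.33 (95% interval 0.16 to 0.50, adjusted p = 0.00982). miR-26b-5p and miR-322-5p were lower, by 0.86 and 0.87 on the log2 scale (adjusted p = 0.000952 and 0.0031), calls that were lost with no scaling.

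Detection differed between the lists of differentiated cell types. Beside 474 of 1247 miRNAs over the whole array, 1 of 18 muscle, 4 of 11 blood cell and 10 of 23 neural miRNAs were described. None of the 17 endoderm-associated miRNAs on the array was detected on any of the 6 arrays. Of the 18 muscle miRNAs, 16 were on no array, among them miR-1a-3p and miR-133a-3p, miR-206-3p was detected on 1 hypoxic EB array and 1 mESC array, and miR-208a-5p was the only one described, at 18.8 and 20.9 units in hypoxic EBs, against 8.19 and 8.65 units in mESCs, a log2 difference of 1.24 (95% interval 1.01 to 1.46, adjusted p = 0.00065). Its partner arm miR-208a-3p was on no array. Of the blood cell list 3 of 3 on all 4 arrays were higher, beside 37.8% over all 394. They included miR-142-3p, a marker of all blood cell lineages, at 93.3 and 97.6 units in hypoxic EBs, 133 and 122 units in normoxic EBs and 61.8 and 60.5 units in mESCs, a log2 difference of 0.64 (95% interval 0.48 to 0.81, adjusted p = 0.00145). The blood list summed to 164 and 165 units in hypoxic EBs, 205 and 193 in normoxic EBs and 96.5 and 91.5 in mESCs, while its miR-144, miR-223 and miR-451a were on no array.

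In the neural list, 1 of 7 on all 4 arrays was higher and 5 were lower, beside 37.8% and 40.4% over all 394. The median was -0.35, and 0.14 with no scaling. The counts were 2 higher and 3 lower without the second hypoxic EB array, and 3 were lower without the second mESC array. miR-124-3p, the main miRNA of neurons, was the one that was higher, with 151 and 161 units in hypoxic EBs, 203 and 199 units in normoxic EBs and 91.4 and 94.1 units in mESCs, a log2 difference of 0.75 (95% interval 0.60 to 0.89, adjusted p = 0.000707). miR-9-3p and miR-9-5p, both arms of a miRNA of neural progenitors, were lower, at 17.3 and 16.6 units in hypoxic EBs, against 28.0 and 28.6 units in mESCs for the first and 66.4 and 61.8 units in hypoxic EBs, against 100.4 and 97.5 units in mESCs for the second. Their log2 differences were -0.74 and -0.63 (adjusted p = 0.00223 and 0.00282). Neither arm passed with no scaling, nor did miR-9-5p with the hur features. The endothelial miR-126-3p was also lower, a log2 difference of -0.50 (95% interval -0.74 to -0.25, adjusted p = 0.00794), but its difference was -0.0016 with no scaling and -0.16 with the hur features, short of the threshold in both (adjusted p = 1 and 0.337).

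The fibroblast list bears on the feeder layer that only the mESC cultures had. Of 31 entries 9 were described and 6 were detected on all 4 arrays. Among the 6, 5 were lower and 1 higher, beside 40.4% and 37.8% over all 394, with a median of -0.53. With no scaling 1 was higher and 1 lower at a median of -0.03. Its summed level was 393 and 379.8 units in hypoxic EBs, 501 and 461 units in normoxic EBs and 670.3 and 644 units in mESCs, of which miR-21a-5p gave the largest part. miR-29a-3p, a repressor of collagen genes, had 34.1 and 33.7 units in hypoxic EBs, against 63.6 and 58.2 units in mESCs, a log2 difference of -0.84 (95% interval -1.04 to -0.65, adjusted p = 0.00104), a call that was lost with no scaling (adjusted p = 0.0885). miR-125b-5p went the other way, miR-199a-3p was detected on both hypoxic EB arrays and on neither mESC array, and miR-143-3p, miR-152-3p, miR-10b-5p and miR-199a-5p were on no array. The part of feeder RNA in the differences from mESCs was not tested.

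Some smaller families were also read. Both described members of the p53-induced miR-34 family were lower, miR-34a-5p at 265 and 268 units in hypoxic EBs, against 423 and 406 units in mESCs, a log2 difference of -0.64 (95% interval -0.82 to -0.45, adjusted p = 0.00188), and miR-34b-5p by 0.58 on the log2 scale (adjusted p = 0.00263). With no scaling their differences were -0.14 and -0.086 and neither passed. The median of the pair was 0.30 for normoxic EBs minus mESCs and -0.91 for hypoxic minus normoxic EBs. In the miR-200 family, which maintains the epithelial state, 5 of 5 on all 4 arrays were lower, beside 40.4% over all 394. Their median was -0.47, and it was 0.03 with no scaling. The count was 3 of 5 without the second hypoxic EB array and without the first mESC array, and 0 with no scaling and with the hur features. miR-200a-3p read 35.1 and 33.4 units in hypoxic EBs, against 49.4 and 48.7 units in mESCs, a log2 difference of -0.52 (95% interval -0.68 to -0.36, adjusted p = 0.00212). The let-7 family, whose mature forms are held back in pluripotent cells by Lin28, was barely above the detection limit, with 6 of 22 described. let-7a-5p had 9.44 and 9.93 units in hypoxic EBs, against 6.69 and 6.55 units in mESCs, a log2 difference of 0.55 (95% interval 0.24 to 0.86, adjusted p = 0.0118), while let-7b-5p, with the same seed, had 4.41 and 5.34 units in hypoxic EBs, against 8.03 and 7.54 units in mESCs, a log2 difference of -0.68 (95% interval -1.03 to -0.33, adjusted p = 0.00889). The call of let-7a-5p was lost in fits without 1 hypoxic EB or mESC array, its difference was -0.07 after quantile normalization, and the call of let-7b-5p was lost without the first mESC array (adjusted p = 0.0503).

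Signal was concentrated in very few miRNAs in every array. On an array the probes differ in how well they bind, so ranks and shares describe the signal of these probes rather than numbers of molecules. The 3 brightest miRNAs held 58.9% and 61.3% of the signal in hypoxic EBs, 63.4% and 63.4% in normoxic EBs and 66.7% and 66.8% in mESCs. It took 33 and 30 miRNAs to reach 90% of the signal in hypoxic EBs, 27 and 28 in normoxic EBs, and 27 and 27 in mESCs. The hypoxic EB signal was thus spread over slightly more miRNAs.

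miR-3963 and miR-6366 were the 2 brightest in both states and changed places. miR-3963 held 27.0% and 28.4% of the signal in hypoxic EBs, against 30.1% and 29.98% in mESCs, and miR-6366 held 25.7% and 26.7% of the signal in hypoxic EBs, against 30.2% and 30.3% in mESCs. The scaled level of miR-3963 did not differ past the threshold, with a log2 difference of -0.31 (95% interval -0.61 to -0.01, adjusted p = 0.0612), and that of miR-6366 was lower, with a log2 difference of -0.40 (95% interval -0.69 to -0.11, adjusted p = 0.0259). miR-3963 passed with the 75th percentile over all miRNAs (adjusted p = 0.0171), with only the miRNAs detected on all arrays (0.025) and without the first or the second hypoxic EB array, where its difference was -0.15 and -0.46 (adjusted p = 0.0408 and 0.00514). For miR-6366 the difference was -0.25 without the first hypoxic EB array. Both differences turned with no scaling, to 0.19 and 0.10, without passing the threshold. The call of miR-6366 was also lost with the hur features, after quantile normalization and in a fit of the 4 arrays alone, and it was lost without either mESC array (adjusted p = 0.0983 and 0.0919). Larger shares in hypoxic EBs were those of miR-5109, at 6.15% and 5.93% of the signal in hypoxic EBs, against 2.74% and 2.72% in mESCs, and miR-5126, at 3.10% and 3.18% of the signal in hypoxic EBs, against 1.89% and 1.99% in mESCs. miR-5109 had a log2 difference of 0.96 (95% interval 0.75 to 1.17, adjusted p = 0.000941), which became 0.33 (adjusted p = 0.250) after quantile normalization. miR-5126 had a log2 difference of 0.51 (95% interval 0.23 to 0.78, adjusted p = 0.0107), a call that was lost without the first mESC array (adjusted p = 0.0589). miR-3960 also had a larger share, with 1.20% and 1.23% of the signal in hypoxic EBs, against 0.635% and 0.674% in mESCs, and had a log2 difference of 0.70 (95% interval 0.43 to 0.98, adjusted p = 0.00378).

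**Figure D4:**
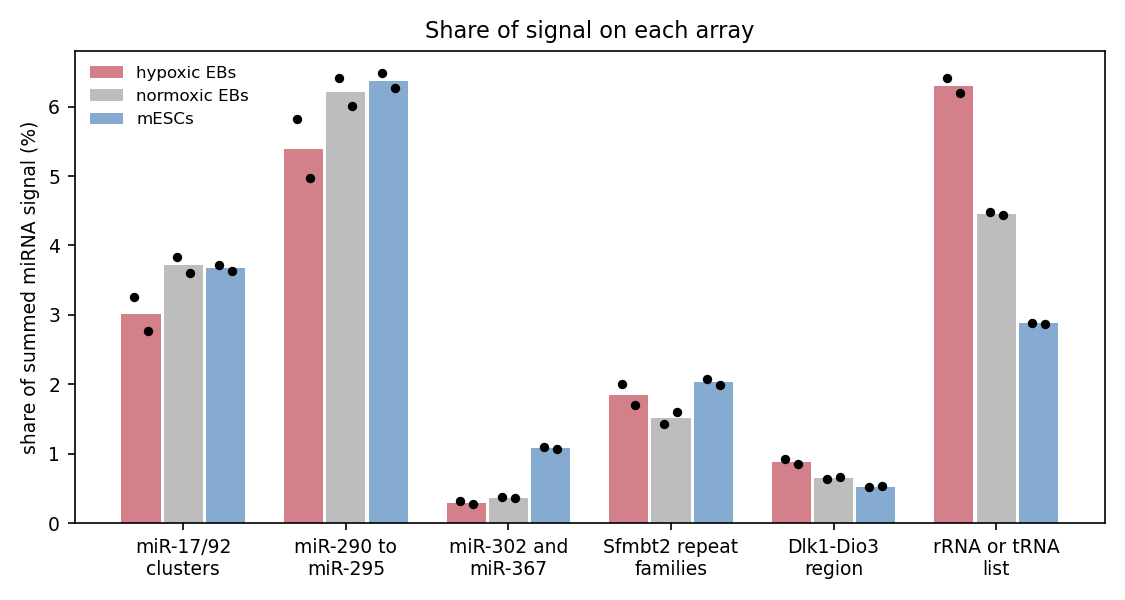
Share of the summed miRNA signal, in percent (vertical axis), of 6 clusters or lists (horizontal axis) in hypoxic EBs, normoxic EBs and mESCs, with bars for the mean of 2 arrays and a point for each array. The miR-302 and miR-367 cluster is at 0.323% and 0.271% in hypoxic EBs, against 1.10% and 1.07% in mESCs, and the 3 entries listed as possible fragments of ribosomal or transfer RNA are at 6.41% and 6.19%, against 2.89% and 2.87%.

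Of the 20 brightest miRNAs, 19 were the same on all 4 arrays. miR-494-3p was within them in hypoxic EBs only, at rank 19 and 18 in hypoxic EBs, against ranks 23 and 23 in mESCs, and miR-20b-5p in mESCs only, at rank 21 and 22 in hypoxic EBs, against ranks 18 and 18 in mESCs. Over the 394 miRNAs the median absolute move in rank was 25 places between the groups, against 5 places between the hypoxic EB arrays and 3 between the mESC arrays, and 79 miRNAs moved by at least 50 places. Among the first 100 ranks of either group, miR-302c-3p moved down the most, to rank 188 and 188 in hypoxic EBs, against ranks 84 and 84 in mESCs. miR-21a-5p was at rank 112 and 118 in hypoxic EBs, against ranks 60 and 63 in mESCs, and miR-302b-3p at rank 89 and 95 in hypoxic EBs, against ranks 40 and 40 in mESCs.

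Among the first 100 ranks of either group the moves up were smaller. Outside them miR-598-5p moved up by 100.5 places. miR-483-5p, which lies within the imprinted Igf2 gene, was at rank 63 and 59 in hypoxic EBs, against ranks 97 and 92 in mESCs. Its level was 325 and 379.5 units in hypoxic EBs, against 190.3 and 204 units in mESCs, a log2 difference of 0.84 (95% interval 0.59 to 1.08, adjusted p = 0.00191). miR-351-3p, from the X-linked cluster that also gives miR-322, was at rank 83 and 85 in hypoxic EBs, against ranks 119 and 118 in mESCs, with a log2 difference of 0.78 (adjusted p = 0.000621). miR-6360 was at rank 100 and 96 in hypoxic EBs, against ranks 134 and 130 in mESCs (0.67, adjusted p = 0.00077), and miR-139-3p at rank 57 and 51 in hypoxic EBs, against ranks 87 and 87 in mESCs (1.00, adjusted p = 0.00161).

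Detection in 1 group only ran almost entirely one way. The 56 miRNAs found on both hypoxic EB arrays and neither mESC array were dim, and together they held 0.0974% and 0.0826% of the hypoxic EB signal. The hypoxic EB arrays were brighter as scanned, with a 75th percentile over that common set of 219 and 175 against 137 and 140.0 in mESCs, so the reach of detection differed between the groups. The brightest was miR-6388, at 16.0 and 18.9 units in hypoxic EBs and 12.7 and 13.99 units in normoxic EBs, against no detection in mESCs. Both mESC arrays were set to the floor of the fit, 2.91 units, and so had no spread, and no p-value is given. Against this floor miR-6388 was at least 5.98-fold higher. On the same footing miR-3076-5p was at least 5.04-fold higher, miR-3085-5p at least 4.83-fold, miR-1945 at least 4.82-fold and miR-184-3p, a miRNA known from the cornea and lens, at least 4.81-fold.

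These bounds assume that an undetected miRNA lies below the floor, yet a miRNA undetected on 1 array of a group read up to 8.95 units on the other array of hypoxic EBs and up to 13.1 units on that of mESCs. A bound of at least 2-fold was reached by 34 of the 56. On the normoxic EB arrays 26 of the 56 were detected on both arrays, 20 on 1 array and 10 on none. Both arms of miR-124 were seen in this comparison, since miR-124-5p was one of the 56, at 9.503 and 9.36 units. In the other direction miR-224-5p stood alone, at 6.33 and 6.65 units in mESCs and undetected in hypoxic EBs. At the same floor it was at least 2.23-fold lower in hypoxic EBs. Against the lowest signal detected on each hypoxic EB array, 1.75 and 2.08 units, the bound was 3.40-fold. Its mESC levels were below the 8.95 units just given.

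Both arms of 56 hairpins were detected on all 4 arrays, and for 22 of these both arms passed the test in the same direction, 3 higher and 19 lower. In 4 hairpins, miR-15b, miR-99b, miR-125a and miR-324, the arms passed in opposite directions, each with the -5p arm lower and the -3p arm higher. These calls depended on the scaling, since no hairpin had opposite calls with no scaling, where the -5p differences of miR-125a and miR-99b were -0.24 and -0.28 and missed the threshold (adjusted p = 0.171 and 0.141). In all other alternatives run miR-125a and miR-99b were among the hairpins with opposite calls, except with the authors' deposited ratio, which is not scaled either. The count was 2, those of miR-125a and miR-99b, without the first mESC array. miR-99b and miR-125a come from a single transcript. miR-125a-5p read 62.1 and 63.2 units in hypoxic EBs, against 105 and 104 units in mESCs, a log2 difference of -0.73 (95% interval -0.91 to -0.56, adjusted p = 0.00117), and miR-125a-3p read 271 and 299.9 units in hypoxic EBs, against 193 and 199 units in mESCs, a log2 difference of 0.54 (95% interval 0.37 to 0.71, adjusted p = 0.00228). Within an array the -5p minus -3p log2 signal of miR-125a was -2.13 and -2.25 in hypoxic EBs, -1.25 and -1.40 in normoxic EBs and -0.89 and -0.94 in mESCs. For miR-99b it was 0.54 and 0.41 in hypoxic EBs, 1.10 and 0.98 in normoxic EBs and 1.82 and 1.71 in mESCs.

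The groups did not overlap in either of these ratios, which no single factor per array can alter, as was the case for 46 of the 56 hairpins, or 82.1%. The 2 hairpins shifted by -1.27 and -1.29 log2 units, and 7 of the 56 by at least 1 in either direction. miR-125a-5p and miR-125b-5p, which share the seed shown above, thus differed in opposite directions from mESCs, at -0.73 and 1.16. In miR-677 the -5p arm was higher while the -3p arm, with a log2 difference of -0.21 (95% interval -0.43 to 0.00, adjusted p = 0.067), missed the threshold. It passed as lower with the 75th percentile over all miRNAs (adjusted p = 0.012), after cyclic loess (0.0202), with only the miRNAs detected on all arrays (0.049) and without the second hypoxic EB array (0.0207), and as higher with no scaling, at 0.28 (adjusted p = 0.0454). Without the first hypoxic EB array it was -0.12.

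The base composition of a miRNA went with its change. Sequences were at hand for 74.9% of the 394 miRNAs, too few for a check over all of them, so it was made outside the Sfmbt2 list, where 289 of 349, or 82.8%, had one. There, G and C content and the log2 difference correlated at r = 0.56 and rho = 0.60 across miRNAs, which share the arrays and their scaling and are not independent replicates. In the tercile with the lowest G and C content (27.3% to 45.5%), 11 of 98 were higher and 67 lower, with a median of -0.42. In the middle tercile 29 of 94 were higher and 37 lower, with a median of -0.04. In the highest tercile (60.9% and above) 73 of 97 were higher and 6 lower, with a median of 0.57.

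Both steps of the comparison showed this gradient. The medians from the lowest to the highest tercile were -0.14, 0.0034 and 0.21 for normoxic EBs minus mESCs and -0.31, -0.09 and 0.38 for hypoxic minus normoxic EBs, which share the normoxic EB arrays. It also went with the number of the miRNA's name, since of the 275 miRNAs numbered below 1000, 66 were higher and 147 lower, of the 74 numbered from 1000 to below 5000, 52 were higher and 6 lower, and of the 45 numbered from 5000, 31 were higher and 6 lower. Among those below 1000 the correlation with G and C content was 0.51 over 202 miRNAs.

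The lists differed in composition, with a median G and C content of 40.0% in the miR-302 and miR-367 cluster, 45.5% in the miR-290 to miR-295 cluster, 47.8% in the miR-17/92 clusters and 59.1% in the Dlk1-Dio3 region. An alternative chosen after seeing the data subtracted from each miRNA the median of its tercile. The miR-302 and miR-367 median was then -1.48, for the miR-290 to miR-295 members -0.06, of the miR-17/92 clusters -0.09, of the miR-200 family -0.05, of the miR-23, miR-24 and miR-27 clusters -0.55 and of the Dlk1-Dio3 region 0.44. For the hypoxia, neural and fibroblast lists the medians were -0.32, -0.13 and -0.23. The 3 entries listed here as possible fragments of ribosomal or transfer RNA, miR-5105, miR-5109 and miR-5115, were all higher, and made up 6.41% and 6.19% of the signal in hypoxic EBs, 4.48% and 4.44% in normoxic EBs and 2.89% and 2.87% in mESCs. This list was set by name from general knowledge, and other entries, bright ones included, were not checked for such an origin. Its share is thus not the share of all such fragments. The part of base composition, of RNA fragments or of RNA quality in the differences was not tested.

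**Figure D5:**
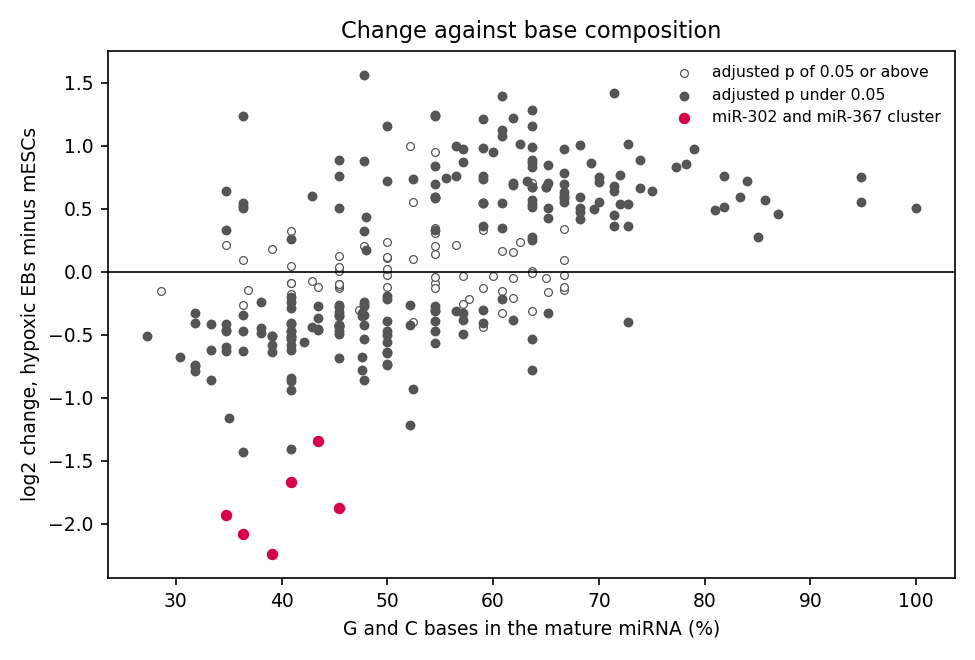
Log2 difference, hypoxic EB minus mESC, against the percentage of G and C bases in the mature sequence, 1 point for each of the 289 miRNAs outside the Sfmbt2 list that were detected on all 4 arrays and have a RefSeq sequence. Filled points have an adjusted p under 0.05, and red points are the miR-302 and miR-367 cluster. Points shift upward with G and C content (r = 0.56), and the miR-302 and miR-367 members have a median of -1.48 relative to their tercile.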

How the data were processed

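Total RNA was extracted with Trizol, per the labels' protocols, and read on single-colour Cy3 Agilent miRNA arrays. Each deposited scanner file gives, per the file headers, a detection flag and a total signal intensity with its error for each of 1268 features, 21 of them controls. An undetected miRNA has the deposited intensity 0.1. The labels' protocols describe Cy3 labelling of amplified cRNA, and the labelling of these miRNA arrays is not settled. Scanner software is not given in the sources used here. The authors' deposited table also holds a ratio, closely matching the raw intensity divided by a control value per miRNA in 1250 of 1253 entries. This ratio has no scaling between arrays and served as an alternative, and 6 value columns in the table were not used. The raw intensities in the table equalled those of the scanner files in 1253 of 1253 entries (relative tolerance 1e-06).

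Intensities were scaled to the 75th percentile over 391 miRNAs that every array detected, floored at 2.91 units (the highest, over arrays, of the lowest detected signal), and log2-transformed. A limma 3.58.1 model of the 3 group means (R 4.3.3, lmFit then eBayes, residual df 3, prior df 1.43) covered 484 miRNAs, each with detection on both arrays of some group. Shares are of the unscaled signal of the miRNAs detected on the array. Replicate numbers in the titles were checked as pairs; correlations of same-numbered deviations were between -0.02 and 0.06, so no block was used. Alternatives were other scalings, floors, filters, sets of arrays and the replicate block. In 20 simulations of this comparison over 484 miRNAs, 89.2% of 1.5-fold and 95.3% of 2-fold changes were recovered and 2.77% of calls were false. The simulations drew independent noise from the fitted spread, with as many rises as falls and no error of scaling. They therefore do not give the share of false calls in the real data. The miRNAs named are the 8 largest rises and falls detected on all 4 arrays without overlap, the 5 brightest found in 1 group only, the 12 largest shares, the 4 largest rank moves each way, up to 4 past the threshold of each list, the 4 brightest of each seed family with at least 3 members on all 4 arrays, and fixed markers, of which the text names a part. miR-9-5p, miR-26b-5p, miR-125a-3p, miR-127-3p, miR-302d-5p, miR-466i-5p, miR-467b-5p, miR-494-3p, miR-669f-3p, miR-677-3p, miR-770-3p and miR-3072-5p fall outside this rule and were picked once their values were known. The miRNAs and lists were chosen with earlier results of these data known.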

Additional observations from a re-analysis of the deposited data

How the results depend on the processing

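The number called lower depended on the scaling between arrays. With no scaling, and equally with the authors' deposited ratio, which is not scaled either, the calls were 251 higher and 19 lower, and with the hur control features 251 higher and 60 lower, against 200 and 163. With no scaling the differences of miR-294-3p (0.023), miR-295-3p (0.083), miR-291a-3p (0.076), miR-127-3p (0.093), miR-3963 (0.19), miR-6366 (0.097) and miR-677-3p (0.28) turned positive, and so did the medians for the miR-290 to miR-295 group (0.074), for the miR-17/92 clusters (0.074), the miR-200 family (0.026), the hypoxia list (0.17), the neural list (0.14), the miR-15 and miR-16 family (0.34), the miR-130 and miR-301 family (0.14), the miR-23, miR-24 and miR-27 clusters (0.11), the miR-29 and miR-30 families (0.19) and all 394 miRNAs (0.41). With the hur features this held for miR-3963 (0.033), miR-677-3p (0.13), the hypoxia list (0.010), the miR-15 and miR-16 family (0.18), the miR-29 and miR-30 families (0.030) and all 394 (0.25). Quantile normalization turned let-7a-5p (-0.073) and miR-3963 (0.064). Relative to miRNAs of the same G and C tercile, an alternative chosen after seeing the data, the medians of the miR-15 and miR-16 family (0.12), the miR-29 and miR-30 families (0.0087) and the miR-99, miR-100 and miR-125 families (-0.055) turned. The causes were not tested beyond the scaling itself. With no filter on detection 124 were higher and 107 lower, and with a 2-fold rule 59 and 18. Leaving out 1 array gave 159 to 192 higher and 124 to 163 lower. Of the 56 miRNAs detected in hypoxic EBs only, 26 reached 2 floors and 8 reached 4 floors on both arrays, and leaving out 1 array gave 59 to 76. The 1 miRNA detected in mESCs only became 0 at 4 floors and 1 to 6 with 1 array left out. A block for the replicate number, which the labels do not tie to a culture or day, gave 198 higher and 159 lower, and of the named miRNAs the calls of miR-485-3p and miR-222-3p were lost. Dim miRNAs and those detected in 1 group only are limited by signal near background, and 2 arrays per group limit every interval.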

Other observations

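Several families outside the clusters above were read in the same fit. In the miR-29 and miR-30 families, 8 of 10 miRNAs detected on all 4 arrays were lower in hypoxic EBs and 1 higher, at a median log2 difference of -0.31 that was 0.19 with no scaling and 0.03 with the hur features. The count lower was 5 of 10 without either mESC array. miR-29c-3p, a repressor of collagen and elastin genes, read 29.2 and 29.2 units in hypoxic EBs, against 45.9 and 44.3 units in mESCs, a log2 difference of -0.63 (95% interval -0.83 to -0.42, adjusted p = 0.00248). In the miR-130 and miR-301 family 4 of 5 were lower, at a median of -0.35 that was 0.14 with no scaling, and 2 of 5 were lower without either hypoxic EB array or without the first mESC array. miR-130a-3p had 854 and 854 units in hypoxic EBs, against 1324 and 1229 units in mESCs, a log2 difference of -0.58 (95% interval -0.78 to -0.38, adjusted p = 0.00278). Its call and that of miR-29c-3p were lost with no scaling. The miR-15 and miR-16 family, which represses cyclins, had 4 of 8 lower, a share close to the 40.4% over all 394, and 1 higher, at a median of -0.16 that was 0.34 with no scaling and 0.18 with the hur features. In this family 2 were lower without the second hypoxic EB array, where none was higher, and without the first mESC array. In the miR-148 and miR-152 family 1 of 2 was lower.

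The miR-183, miR-96 and miR-182 cluster, known from sensory cells and also active in stem cells, had 2 of 4 higher, beside 37.8% over all 394, and none lower, at a median of 0.18. miR-183-5p had 84.3 and 84.6 units in hypoxic EBs, 111 and 99.4 units in normoxic EBs and 72.9 and 68.0 units in mESCs, a log2 difference of 0.26 (95% interval 0.06 to 0.46, adjusted p = 0.0291), and the normoxic EBs were highest. Its call was lost in each fit without 1 hypoxic EB or mESC array, with adjusted p between 0.0620 and 0.131, and with the 75th percentile over all miRNAs (0.109). In the miR-99, miR-100 and miR-125 families 3 of 5 were higher and 2 lower (none lower with no scaling), the arms described above among them. Members of no list made up 222 of the 394, with 121 higher, 46 lower and a median of 0.36. The pair miR-221-3p and miR-222-3p, which share a seed, repress the cell cycle inhibitor p27 and were singled out after their values were seen, was lower. miR-221-3p read 18.2 and 18.8 units in hypoxic EBs, 20.8 and 20.6 units in normoxic EBs and 33.3 and 33.8 units in mESCs, a log2 difference of -0.86 (95% interval -0.98 to -0.74, adjusted p = 0.000395). miR-222-3p had 9.30 and 5.66 units in hypoxic EBs, 6.54 and 10.2 units in normoxic EBs and 16.4 and 17.4 units in mESCs, a log2 difference of -1.22 (95% interval -2.09 to -0.35, adjusted p = 0.0251), and its replicates were less even. The call of miR-222-3p was lost without the second hypoxic EB array, without either mESC array and with the replicate block, with adjusted p between 0.0529 and 0.112. With no scaling neither passed (-0.36 and -0.72, adjusted p = 0.0557 and 0.1995), and miR-222-3p did not with the hur features.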
